A study of Homo sapiens with 8 samples.

Results

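ETV5 and 9 genes linked to the feedback control of ERK signalling were described in T-ALL cells with reduced LDB1. The 10 genes are the PEA3-group ETS factors ETV1, ETV4 and ETV5, the Sprouty genes SPRY1 and SPRY2, the Sprouty-related genes SPRED1 and SPRED2, and the dual-specificity phosphatase genes DUSP4, DUSP5 and DUSP6. They are 10 of the 64252 genes in the count tables and were taken by gene symbol. ETV5 was among the genes singled out in an earlier look at these data because its knockdown change was large in both cell lines, and the other 9 were added for their function with the earlier results known. The knockdown values of all 10 genes are therefore given as a description. Where one of them is said to pass the threshold on knockdown, that too is a description and is not read as a test.

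RNA was sequenced from 2 human T-ALL cell lines, 6T-CEM, which derives from CCRF-CEM, and J.gamma1, a Jurkat derivative known for its loss of phospholipase C gamma 1. Cells of both lines had received a lentiviral pLKO.1 vector and puromycin selection. The vector carried a control hairpin (sh-NC) or a hairpin that targets LDB1 (sh-LDB1). The 4 groups were 6T-CEM sh-NC, 6T-CEM sh-LDB1, J.gamma1 sh-NC and J.gamma1 sh-LDB1, with 2 libraries each and 8 in all. The study tested several LDB1 shRNAs, and its text does not name the shRNA of the sequenced cells. The labels do not say that the 2 libraries of a group came from separate cultures, so the spread between them may be technical.

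LDB1 is an adaptor that joins LMO2, GATA and TAL1 complexes and brings enhancers and promoters together. The ERK cascade passes a signal from RAS through RAF and MEK to the ERK kinases. Active ERK raises transcription of PEA3-group factors and of its own inhibitors: Sprouty and SPRED proteins act on the steps around RAS and RAF, and DUSP6, DUSP4 and DUSP5 remove phosphate from ERK, the first in the cytoplasm and the others in the nucleus. In T cells the T-cell receptor reaches this cascade through LAT, phospholipase C gamma 1 and RASGRP1.

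The libraries held 26160492 to 30604977 counts in all. Replicates of a group differed by more than sampling noise, with a chi-square per degree of freedom between 7.04 and 11.7, and none was counted as a repeat of another. LDB1, the targeted gene, fell in 6T-CEM from 109 ± 3.04 to 36.0 ± 1.42 normalised counts-per-million (CPM; SD, n = 2), a log2 fold change of -1.60 (SE 0.071, edgeR adjusted p = 1.02e-09). In J.gamma1 it fell from 59.4 ± 0.962 to 32.0 ± 1.72 CPM, a log2 fold change of -0.89 (SE 0.075, edgeR adjusted p = 3.68e-06). Of 10 T-lineage markers, 9 had at least 50 counts in every library. The summed T-lineage level was 2156 to 2164 CPM with sh-NC and 2654 to 2698 CPM with sh-LDB1 in 6T-CEM, and 2532 to 2572 CPM and 2904 to 2959 CPM in J.gamma1. The sum hides markers that moved in opposite ways: without overlap of the groups, 8 of the 10 were higher and 1 lower with sh-LDB1 in 6T-CEM, and 5 were higher and 5 lower in J.gamma1. Of 12 markers of other cell types, MS4A1 and HBG1 had at most 3 counts everywhere, while PECAM1 and CD79A had at least 50 counts in every library. The summed level of these 12 was 89.0 to 89.4 CPM and 92.8 to 99.5 CPM in 6T-CEM and 185 CPM and 167 to 175 CPM in J.gamma1, with sh-NC and sh-LDB1, and in each line 4 of the 12 were higher and 2 lower without overlap. With sh-LDB1 in 6T-CEM, CD79A was at 38.8 against 23.3 CPM and PECAM1 at 53.6 against 64.1 CPM. The share of all genes whose groups did not overlap was not counted, so these numbers of markers are a description only. The part of these shifts in the results was not tested.

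ETV5 was lower with sh-LDB1 in both lines. ETV5 (ENSG00000244405, GENCODE release 44 on GRCh38, chr3:186046314-186110318, minus strand) encodes an ETS transcription factor whose transcript is a common readout of FGF and ERK activity. Its counts in 6T-CEM were 4831 and 5239 in control cells and 925 and 898 after knockdown, or 186 and 194 CPM against 31.7 and 31.4 CPM. J.gamma1 sh-NC libraries held 2557 and 2527 counts of it against 124 and 100 with sh-LDB1, or 80.5 and 80.1 CPM against 4.43 and 3.39 CPM. In each line both sh-LDB1 libraries lay far below both sh-NC libraries. The log2 fold change was -2.59 (SE 0.066) in 6T-CEM, where 16.6% of the control level was left, and -4.36 (SE 0.112) in J.gamma1, where 4.88% was left. The log2 fold change in J.gamma1 minus that in 6T-CEM was -1.77 (SE 0.121). LDB1 itself was reduced less in J.gamma1, with a difference of 0.70 (SE 0.095) in the same direction of subtraction. In bulk RNA, fewer cells with the transcript and less transcript per cell cannot be told apart.

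**Figure D1:**
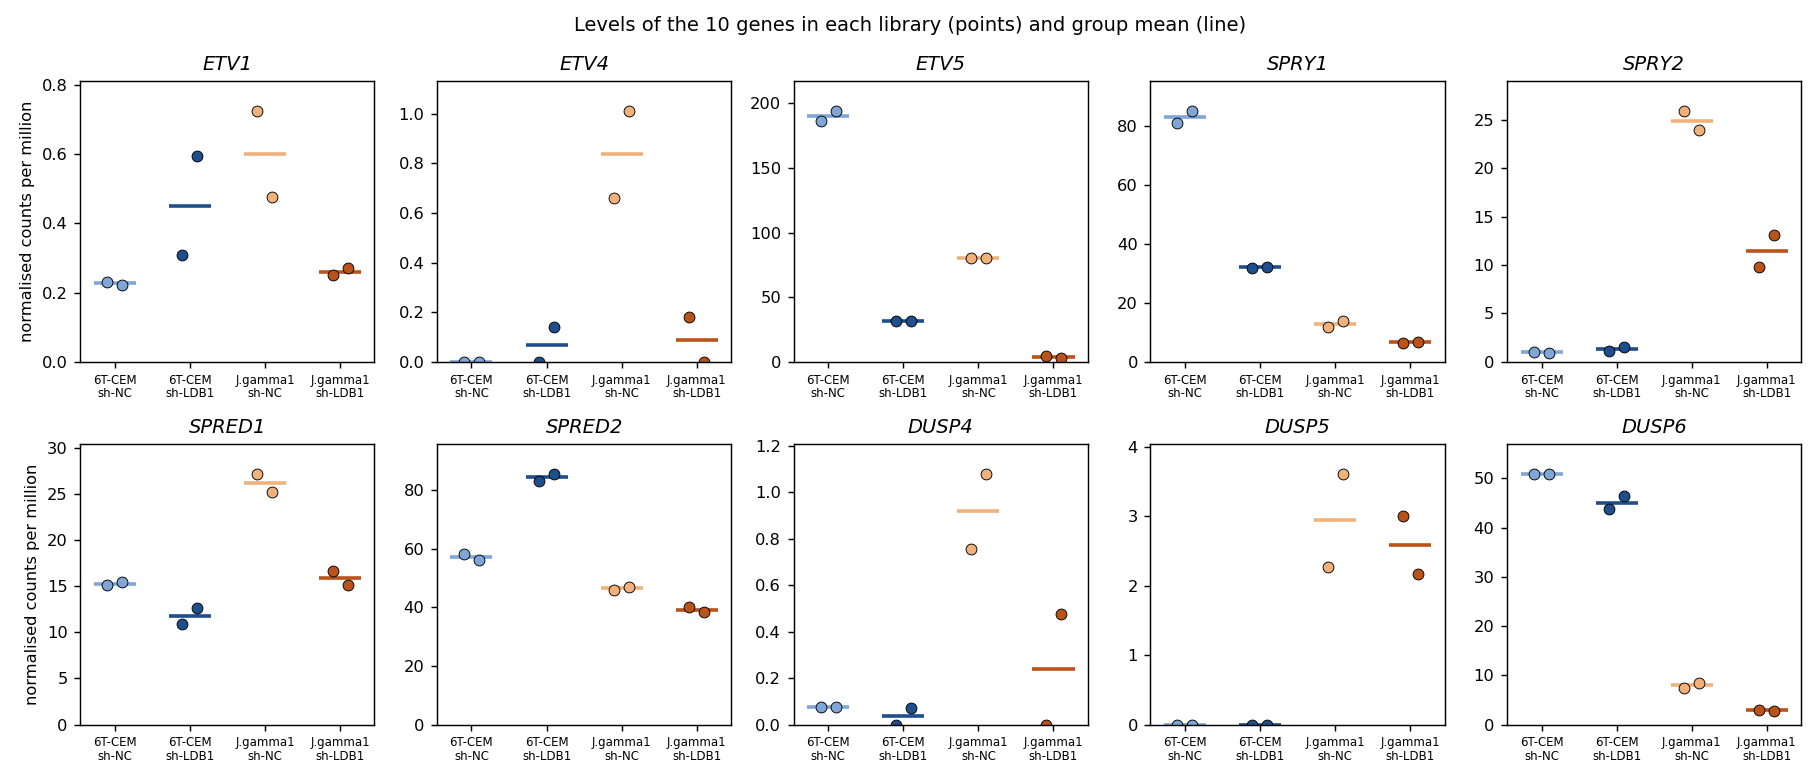
Level of each of the 10 genes in CPM (vertical axis, a separate scale per gene) in the 8 libraries; points are libraries (replicate 1 left, replicate 2 right) and lines are group means. The group mean of ETV5 was 190 against 31.6 in 6T-CEM and 80.3 against 3.91 in J.gamma1, SPRED2 was higher with sh-LDB1 in 6T-CEM and lower in J.gamma1, and DUSP5 had 0 counts in all 4 6T-CEM libraries.

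ETV5 overlaps a neighbouring gene. ETV5 and DGKG, the gene of diacylglycerol kinase gamma, are on the same strand and share 164 exon bases in GENCODE release 44, which is 2.84% of the 5773 exon bases of ETV5. DGKG had 1419 and 1622 counts in 6T-CEM sh-NC and 801 and 867 counts in 6T-CEM sh-LDB1. The J.gamma1 counts were 230 and 313 in control cells and 433 and 429 after knockdown. DGKG thus moved with ETV5 in 6T-CEM and against it in J.gamma1. By edgeR's quasi-likelihood test it fell in 6T-CEM with a log2 fold change of -0.99 (SE 0.088, adjusted p = 1.02e-06) and rose in J.gamma1 with 0.81 (SE 0.160, adjusted p = 0.0015). The difference of these responses, J.gamma1 minus 6T-CEM, was 1.80 (SE 0.182, adjusted p = 3.74e-05).

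The shared bases limit what reads can be assigned. In J.gamma1 the gain of DGKG equalled 8.41% of the loss of ETV5 in normalised counts. DGKG made up 8.25% and 11.0% of the summed ETV5 and DGKG counts in J.gamma1 control cells and 77.7% and 81.1% after knockdown. With the counts of both genes summed, the log2 fold changes came to -2.03 for 6T-CEM and -2.23 for J.gamma1. How the authors' counting split reads in the shared bases was not tested. The antisense gene ETV5-AS1 had 0 counts in every library.

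**Figure D2:**
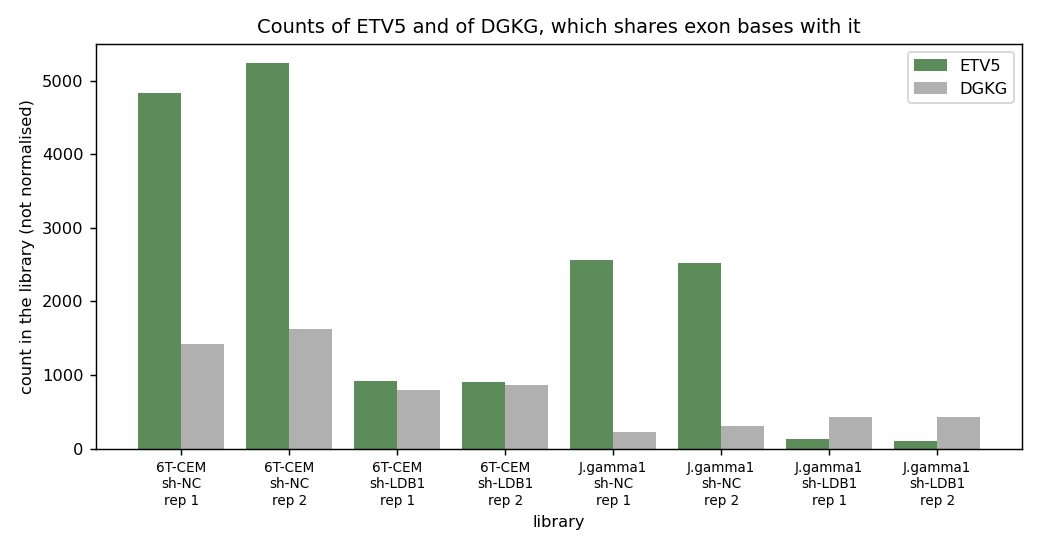
Counts of ETV5 (green) and DGKG (grey) in each of the 8 libraries (horizontal axis), as deposited and not normalised, with bars from 0. ETV5 outnumbered DGKG in both sh-NC groups, the genes were close in 6T-CEM sh-LDB1 (925 and 801, 898 and 867), and DGKG outnumbered ETV5 in J.gamma1 sh-LDB1 (433 and 429 against 124 and 100).

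The other PEA3-group factors were near the limit of detection. ETV1 (chr7:13891229-13991425, minus strand) had 6 and 6 counts in 6T-CEM sh-NC, 9 and 17 in 6T-CEM sh-LDB1, 23 and 15 in J.gamma1 sh-NC, and 7 and 8 in J.gamma1 sh-LDB1. It did not pass the count filter in 6T-CEM, and its log2 fold change in J.gamma1 was -1.18 (SE 0.584). The ETV1 groups did not overlap in either line and lay in opposite directions, higher with sh-LDB1 in 6T-CEM and lower in J.gamma1. ETV4 (chr17:43527844-43579620, minus strand) had 0 and 0 counts in 6T-CEM sh-NC, 0 and 4 in 6T-CEM sh-LDB1, 21 and 32 in J.gamma1 sh-NC, and 5 and 0 in J.gamma1 sh-LDB1. Its log2 fold change in J.gamma1 was -3.19 (SE 0.863) and rested on single libraries, with -7.70 without sh-LDB1 replicate 1 and -2.19, no longer past the threshold, without sh-LDB1 replicate 2. ETV4 shares 68 exon bases with DHX8 on the opposite strand, a gene with 2853 to 4218 counts per library, and whether the counting used the strand is not stated in the sources used here. A 0 in these libraries allows up to 3 counts.

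Of the 10 genes, 6 passed the count filter in 6T-CEM and all 10 in J.gamma1. Past the threshold (adjusted p under 0.05 over all genes tested) were 3 in 6T-CEM, 2 lower (ETV5 and SPRY1) and 1 higher (SPRED2), where 31.3% of the 16059 genes tested were called, 16.2% lower and 15.1% higher. In J.gamma1 7 were past it, all lower (ETV4, ETV5, SPRY1, SPRY2, SPRED1, SPRED2 and DUSP6), where 51.5% of 17215 genes were called, 26.5% lower and 25% higher. With a log2 fold change beyond 1 as well, 2 genes remained in 6T-CEM (ETV5 and SPRY1), beside 5.13% of all genes tested, and 4 in J.gamma1 (ETV4, ETV5, SPRY2 and DUSP6), beside 13.9%. The genes were chosen with these contrasts known, and genes that passed the filter only through the group where they were high had to differ, so nothing is read from these counts.

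**Figure D3:**
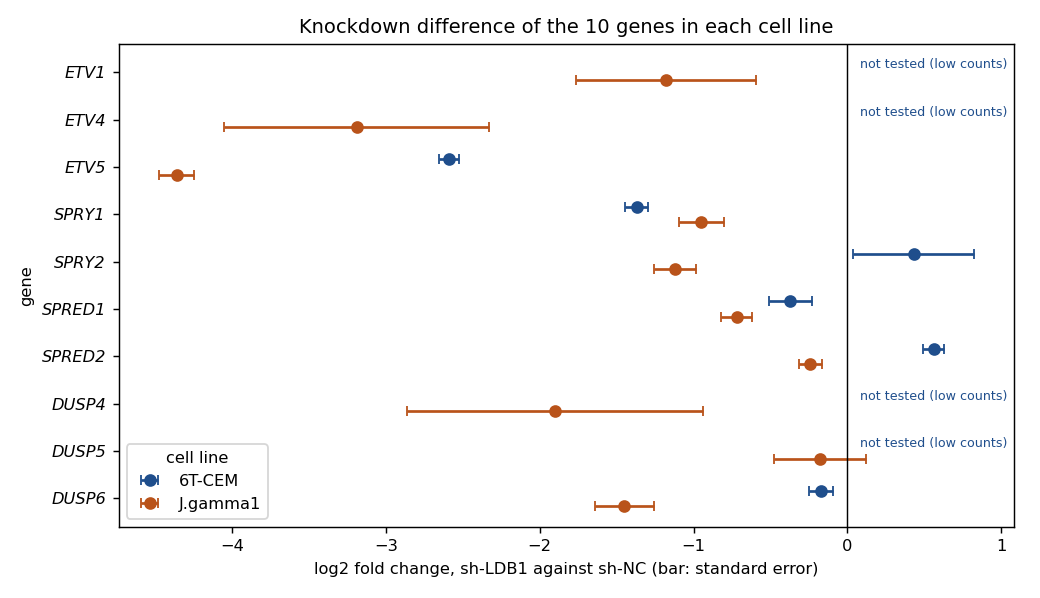
Log2 fold change of sh-LDB1 against sh-NC (horizontal axis, bars are standard errors) for each gene in 6T-CEM (blue) and J.gamma1 (orange). All 10 J.gamma1 values are below 0, from -4.36 for ETV5 to -0.18 for DUSP5, while in 6T-CEM SPRY2 and SPRED2 are above 0 and ETV1, ETV4, DUSP4 and DUSP5 had too few counts for a test.

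The 250 bases before the annotated RefSeq starts were read for 6 of the 10 genes, in 15 windows on GRCh38.p14. No window was read for ETV4, ETV5, DUSP4 or DUSP5. ETS factors such as ETV5 bind DNA at GGAA, so windows of SPRY1, whose level was down to 38.7% and 51.7% of control in the lines, of DUSP6, at 88.7% and 36.6%, and of SPRED2, at 148% and 84.7%, are shown with GGAA and its complement TTCC in capitals, 5′ to 3′ on the strand of the gene. Both windows of SPRY1 are shown. SPRED2 also has 2, and the one at the 5′ end of the gene is shown.
SPRY1, chr4:123396545-123396794, plus strand: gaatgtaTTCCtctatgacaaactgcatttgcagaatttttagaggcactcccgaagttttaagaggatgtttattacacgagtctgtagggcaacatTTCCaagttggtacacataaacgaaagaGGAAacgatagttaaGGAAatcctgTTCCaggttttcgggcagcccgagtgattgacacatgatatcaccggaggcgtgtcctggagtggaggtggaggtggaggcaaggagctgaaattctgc
SPRY1, chr4:123398136-123398385, plus strand: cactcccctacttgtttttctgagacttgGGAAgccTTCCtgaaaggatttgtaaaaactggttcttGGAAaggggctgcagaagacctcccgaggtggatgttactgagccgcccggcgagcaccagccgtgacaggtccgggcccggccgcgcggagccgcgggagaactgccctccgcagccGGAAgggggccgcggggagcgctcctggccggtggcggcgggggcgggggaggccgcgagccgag
DUSP6, chr12:89352502-89352751, minus strand: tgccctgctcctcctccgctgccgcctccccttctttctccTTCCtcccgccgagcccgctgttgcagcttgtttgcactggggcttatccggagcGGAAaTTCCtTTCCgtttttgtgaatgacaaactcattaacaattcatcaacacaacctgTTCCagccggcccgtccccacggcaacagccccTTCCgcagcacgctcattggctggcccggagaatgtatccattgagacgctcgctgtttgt
SPRED2, chr2:65432600-65432849, minus strand: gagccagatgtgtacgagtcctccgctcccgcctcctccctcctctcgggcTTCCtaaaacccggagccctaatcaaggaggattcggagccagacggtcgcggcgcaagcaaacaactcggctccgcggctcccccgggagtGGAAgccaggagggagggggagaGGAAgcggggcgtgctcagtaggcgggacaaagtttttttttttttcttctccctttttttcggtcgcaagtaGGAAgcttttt

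GGAA was counted on both strands. It occurred 5 times in the first window of SPRY1, 4 times in the second, 6 times in that of DUSP6, and 4 times in the SPRED2 window shown and 5 times in the other, and 3 to 6 times in the 15 windows. It is common, since 92.7% of the 35116 windows of the same length in the table hold it. The longer ETS sequence CCGGAAG, which contains GGAA, was found in 1 of the 15 windows, the second of SPRY1, and in 8.52% of all windows. The E-box CAGATG was found in both SPRED2 windows, with 1 in the one shown, and in 12.2% of all windows. No member window held the GATA sequence AGATAA, present in 9.17% of all windows, or the CRE TGACGTCA, present in 1.65%. These are matches of letters, and binding was not measured here.

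The Sprouty genes differed between the lines in which gene was abundant. SPRY1 (chr4:123396795-123403760, plus strand) and SPRY2 (chr13:80335976-80341126, minus strand) encode membrane-associated inhibitors of receptor tyrosine kinase signalling to RAS and RAF. SPRY1 had 2099 and 2290 counts in 6T-CEM sh-NC against 929 and 920 with sh-LDB1, or 80.8 and 84.9 CPM against 31.9 and 32.2 CPM. J.gamma1 held 377 and 432 counts against 183 and 195, or 11.9 and 13.7 CPM against 6.53 and 6.62 CPM. The sh-LDB1 libraries were below the sh-NC libraries in both lines. The log2 fold change was -1.37 (SE 0.074) in 6T-CEM, with 38.7% of the control level left, and -0.95 (SE 0.146) in J.gamma1, with 51.7% left, and the difference of these was 0.41 (SE 0.128).

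SPRY2 showed another pattern. It had 26 and 26 counts in 6T-CEM sh-NC and 32 and 44 counts in 6T-CEM sh-LDB1, with a log2 fold change of 0.43 (SE 0.391) that lay between 0.16 and 0.65 when single libraries were left out. J.gamma1 control cells held 824 and 755 counts and knockdown cells 273 and 385, or 25.9 and 23.9 CPM against 9.75 and 13.1 CPM. The J.gamma1 groups did not overlap, and the log2 fold change was -1.12 (SE 0.137), with 46.0% of the control level left. The difference of the responses was -1.55 (SE 0.316).

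The SPRED genes encode relatives of Sprouty that bind neurofibromin and hold RAS in check. SPRED1 (chr15:38252836-38357249, plus strand) had 393 and 418 counts in 6T-CEM control cells and 319 and 361 after knockdown, with a log2 fold change of -0.37 (SE 0.139). Its J.gamma1 counts were 865 and 794 in control cells and 468 and 444 after knockdown, or 27.2 and 25.2 CPM against 16.7 and 15.1 CPM, with a log2 fold change of -0.72 (SE 0.102). The groups of SPRED1 did not overlap in either line, and both lay in the same direction.

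SPRED2 (chr2:65310851-65432637, minus strand) was higher with sh-LDB1 in 6T-CEM and lower in J.gamma1, and its groups did not overlap in either line. In 6T-CEM control cells held 1515 and 1514 counts and knockdown cells 2423 and 2450, or 58.3 and 56.2 CPM against 83.1 and 85.6 CPM, which is 1.48-fold higher (log2 fold change 0.56, SE 0.069). In J.gamma1 the counts were 1460 and 1484 against 1120 and 1133, or 46.0 and 47.0 CPM against 40.0 and 38.4 CPM, with 84.7% of the control level left (log2 fold change -0.24, SE 0.072). The value in J.gamma1 is small, and it no longer passed the threshold without sh-LDB1 replicate 2 (-0.21), without sh-NC replicate 2 (-0.23) or with DESeq2 (-0.23). The difference of the responses was -0.81 (SE 0.089).

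Of the ERK phosphatase genes, DUSP6 was abundant in 6T-CEM and was lower with sh-LDB1 chiefly in J.gamma1. DUSP6 (chr12:89347235-89352501, minus strand) encodes the cytoplasmic phosphatase that is selective for ERK. It had 1323 and 1373 counts in 6T-CEM sh-NC and 1276 and 1324 with sh-LDB1, or 50.9 and 50.9 CPM against 43.7 and 46.3 CPM, with a log2 fold change of -0.17 (SE 0.077). In J.gamma1 the counts were 235 and 268 against 84 and 82, or 7.40 and 8.49 CPM against 3.0 and 2.78 CPM. There 36.6% of the control level was left (log2 fold change -1.45, SE 0.191), and the difference of the responses was -1.28 (SE 0.147). DUSP6 shares 1105 exon bases, 28.6% of its own, with the antisense gene ENSG00000274021, which had 0 to 23 counts per library.

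The nuclear phosphatase genes were low. DUSP5 (chr10:110497907-110511533, plus strand) had 0 counts in all 4 6T-CEM libraries, and 72 and 114 counts in J.gamma1 sh-NC against 84 and 64 in J.gamma1 sh-LDB1. These J.gamma1 groups overlapped, with a log2 fold change of -0.18 (SE 0.299) that turned to 0.19 without sh-NC replicate 2. DUSP4 had 2 and 2 counts in 6T-CEM sh-NC and 0 and 2 with sh-LDB1, and 24 and 34 counts in J.gamma1 sh-NC against 0 and 14 with sh-LDB1. Its log2 fold change in J.gamma1 was -1.90 (SE 0.964) and depended on the library, with -0.93 without sh-LDB1 replicate 1 and -7.81 without sh-LDB1 replicate 2, where it passed the threshold. No fold is given for DUSP4 or DUSP5 in 6T-CEM, where no library had more than 3 counts.

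Control cells of the lines were compared to ask which of the 10 genes each line uses before LDB1 is reduced. The genes were not chosen by this contrast. Its sh-NC libraries are also the reference of the knockdown contrasts known at the choice, so it is not fully independent of that choice. It was tested by edgeR's quasi-likelihood test in a fit of all 8 libraries. ETV4, DUSP4 and DUSP5 had 0 to 2 counts in 6T-CEM sh-NC and entered this test only through J.gamma1, where they were high, so they had to differ and nothing is read from their calls. The counts of each line were deposited in a table of their own, so line and table cannot be told apart. Of the 10 genes, 9 differed, 5 higher in J.gamma1 and 4 higher in 6T-CEM, and these counts include ETV4, DUSP4 and DUSP5. Of all 18552 genes tested, 65.7% differed, 34.6% higher and 31.1% lower in J.gamma1. With those genes included, the count of 9 is not read against this share. ETV5, SPRY1, DUSP6 and SPRED2 were higher in 6T-CEM, and SPRY2, SPRED1, ETV4, DUSP4 and DUSP5 were higher in J.gamma1.

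In 6T-CEM sh-NC the level of ETV5 was 190 ± 5.99 CPM (SD, n = 2) against 80.3 ± 0.311 CPM in J.gamma1 sh-NC, a log2 difference (J.gamma1 minus 6T-CEM) of -1.24 (SE 0.069, edgeR adjusted p = 1.08e-08). SPRY1 was 6.48-fold lower in J.gamma1, at 12.8 ± 1.29 CPM against 82.9 ± 2.96 CPM (log2 difference -2.70, SE 0.088, edgeR adjusted p = 1.34e-10). DUSP6 was 6.40-fold lower there (log2 difference -2.68, SE 0.098, edgeR adjusted p = 3.03e-10). SPRED2 differed least of those that passed, with a log2 difference of -0.30 (SE 0.063, edgeR adjusted p = 0.00115).

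SPRY2 was 25.3-fold higher in J.gamma1, at 24.9 ± 1.43 CPM against 0.982 ± 0.0253 CPM (log2 difference 4.66, SE 0.225, edgeR adjusted p = 3.26e-09), so the Sprouty genes differed in opposite directions between the lines. SPRED1 was 1.71-fold higher in J.gamma1 (log2 difference 0.77, SE 0.116, edgeR adjusted p = 8.18e-05). DUSP5 was at least 25.9-fold higher against a floor of 3 counts per library, and ETV4 at least 7.39-fold higher. DUSP4 had 58 counts in the J.gamma1 control libraries together against 4 in those of 6T-CEM, a ratio of 12.1 after scaling (95% exact interval 4.49 to 46.0, counting error only). The calls of DUSP5, ETV4 and DUSP4 are not read, since these genes entered the test only through J.gamma1. For DUSP4 the log2 difference was 3.53 (SE 1.159), and 3.26 to 3.76 when single libraries were left out. Its call was lost without either 6T-CEM sh-NC library or without J.gamma1 sh-NC replicate 2. With the replicate number as a block the DUSP4 call was also lost (log2 difference 3.30, edgeR adjusted p = 0.0952). ETV1 did not pass, with a log2 difference of 1.39 (SE 0.644, edgeR adjusted p = 0.0771).

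Levels of different genes were set side by side per exon length, as RPKM, in which counts are scaled to library size and to exon length in kilobases. ETV5 had the highest RPKM of the 10 genes in both control groups, with 32.9 ± 1.04 in 6T-CEM and 13.9 ± 0.0538 in J.gamma1 (SD, n = 2). In 6T-CEM sh-NC it was followed by SPRY1 at 20.9, DUSP6 at 13.2, SPRED2 at 10.4, SPRED1 at 1.98 and SPRY2 at 0.306 RPKM, and no neighbours in this order overlapped. In 6T-CEM sh-LDB1 the order was SPRED2 at 15.3, DUSP6 at 11.7, SPRY1 at 8.08 and ETV5 at 5.47 RPKM, again without overlap of neighbours. ETV5 moved from the first to the fourth place.

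In J.gamma1 sh-NC SPRED2 at 8.45 and SPRY2 at 7.76 RPKM came after ETV5, and SPRED1 at 3.38 and SPRY1 at 3.23 RPKM overlapped each other. DUSP6 at 2.06 and DUSP5 at 1.16 RPKM followed. In J.gamma1 sh-LDB1 SPRED2 led with 7.12 RPKM, before SPRY2 at 3.55, SPRED1 at 2.05, SPRY1 at 1.66 and DUSP5 at 1.02. ETV5 had dropped to 0.677 RPKM, a level that overlapped that of DUSP6 at 0.749 RPKM. SPRED2 had the highest RPKM of the 10 in both sh-LDB1 groups. ETV1, ETV4 and DUSP4 stayed at or under 0.238 RPKM in every group.

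**Figure D4:**
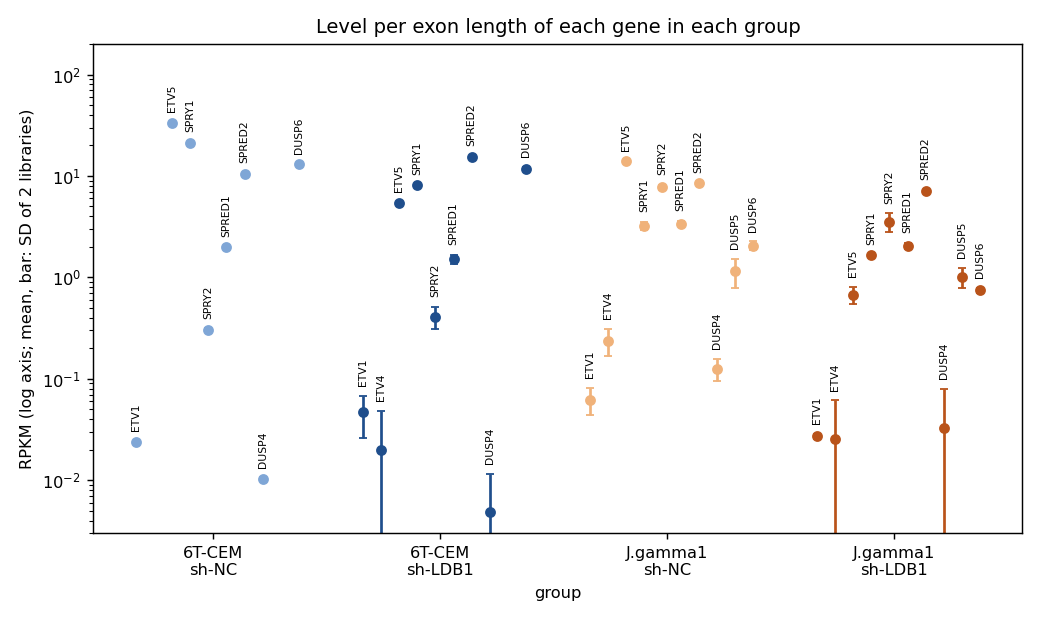
Mean level of each gene per exon length in RPKM (vertical log axis) in the 4 groups (horizontal axis); bars are the SD of 2 libraries, and genes with 0 counts in a group (ETV4 and DUSP5 in 6T-CEM sh-NC, DUSP5 in 6T-CEM sh-LDB1) cannot be drawn on a log axis. ETV5 is the highest point in both sh-NC groups (32.9 and 13.9), and SPRED2 is the highest in both sh-LDB1 groups (15.3 and 7.12).

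The genes whose levels followed ETV5 most closely over the 8 libraries were found by the Pearson correlation of log2 CPM among 13633 genes. SMIM24, which encodes a small membrane protein, led with r = 0.9988 and had 4595 and 4691 counts in 6T-CEM sh-NC, 1431 and 1491 in 6T-CEM sh-LDB1, 3256 and 3429 in J.gamma1 sh-NC, and 329 and 310 in J.gamma1 sh-LDB1. It was followed by RPA1, a subunit of the single-strand DNA-binding protein of replication (r = 0.9971), CD47, the surface ligand that restrains phagocytosis (r = 0.9970), C9, a terminal complement component (r = 0.9961), and TMEM164 (r = 0.9958). None of the other 9 genes was among these 5. For ETV1, ETV4, DUSP4 and DUSP5 this was fixed in advance, since their counts averaged below the 50 required for this comparison. The 8 points form 4 groups of 2 libraries and 236 genes reached an r of at least 0.95, so the order is a description of these libraries. The log2 fold changes of these 5 genes were smaller in size than those of ETV5 in both lines. They ran in 6T-CEM from -1.79 (SE 0.065) for SMIM24 to -0.43 (SE 0.054) for RPA1, and in J.gamma1 from -3.26 (SE 0.135) for C9 to -0.69 (SE 0.046) for RPA1.

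Around the 10 genes, 77 other genes of the pathway were read in 6 lists. Over all lists, 29 of 58 tested genes changed in 6T-CEM (19 higher, 10 lower) beside the 31.3% of all genes, and 43 of 67 changed in J.gamma1 (17 higher, 26 lower) beside the 51.5%. The listed genes had a median log2 fold change of 0.12 (6T-CEM) and -0.18 (J.gamma1), and over all genes tested it was 0.00 and -0.00. The response differed between the lines for 33 of 68 listed genes by the test of the difference, 24 of them lower and 9 higher in J.gamma1, where 24.4% of all genes differed. The lists were chosen by function with earlier results of these data known.

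Among 10 relatives of the feedback genes, 8 were tested in 6T-CEM, of which 2 rose and 1 fell, and all 10 in J.gamma1, of which 2 rose and 3 fell. DUSP10, a phosphatase of the stress kinases JNK and p38, fell in both lines, with log2 fold changes of -1.08 (SE 0.136, edgeR adjusted p = 2.85e-05) and -0.79 (SE 0.125, edgeR adjusted p = 0.000363). DUSP1, an immediate early phosphatase, fell in J.gamma1 at -1.26 (SE 0.114) and was at 0.01 (SE 0.125) in 6T-CEM, and the difference was -1.27 (edgeR adjusted p = 0.000219). DUSP16 rose in 6T-CEM (0.45) and fell in J.gamma1 (-0.53), with a difference of -0.97 (edgeR adjusted p = 0.000215), and its call in 6T-CEM was lost without 6T-CEM sh-NC replicate 1 (0.39, adjusted p = 0.0519). SPRY4, another Sprouty gene, rose in 6T-CEM at 1.16 (SE 0.312, edgeR adjusted p = 0.0107), a call that was lost without either sh-LDB1 library (1.13 and 1.19) or without sh-NC replicate 1 (0.83). It was at -0.65 (SE 0.358) in J.gamma1, and the difference was -1.81 (edgeR adjusted p = 0.0169). DUSP2 and DUSP7 rose in J.gamma1 at 1.00 and 0.26, and DUSP7 lost its call without sh-LDB1 replicate 2 (0.22) or sh-NC replicate 2 (0.19).

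Called changes in the core cascade were below 1 in size on the log2 scale, the largest being KSR1 in J.gamma1. Of 16 genes, 6 rose and 2 fell in 6T-CEM, and 4 rose and 5 fell in J.gamma1. ARAF rose in 6T-CEM by 0.42 and in J.gamma1 by 0.55 on the log2 scale, and the adaptor gene SHC1 by 0.44 and 0.66. MAP2K1, the gene of MEK1, rose by 0.25 and 0.64, and its call in 6T-CEM was lost without sh-LDB1 replicate 2 (0.18), sh-NC replicate 1 (0.30) or sh-NC replicate 2 (0.20). MAPK3, the gene of ERK1, fell in J.gamma1 at -0.50 (edgeR adjusted p = 2.3e-05) and was at -0.01 in 6T-CEM, and these differed (-0.49, edgeR adjusted p = 0.00124). KSR1, a scaffold of the cascade, fell in J.gamma1 at -0.89 (SE 0.105).

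Among genes of RAS and RAF inhibitors, a rise of RASAL3 stood beside a fall of RASA3 in both lines. Of 9 tested in 6T-CEM 4 rose and 2 fell, and of 10 in J.gamma1 3 rose and 5 fell. RASAL3, a RAS GTPase-activating protein of blood cells, rose in 6T-CEM at 1.91 (SE 0.091, edgeR adjusted p = 2.67e-09) and in J.gamma1 at 2.39 (SE 0.076, edgeR adjusted p = 3.8e-09). RASA3, another GTPase-activating protein, fell at -0.75 (SE 0.069) and -1.35 (SE 0.054) in the same lines. CBL, a ubiquitin ligase for activated receptors, rose in 6T-CEM (0.39) and fell in J.gamma1 (-0.46), with a difference of -0.85 (edgeR adjusted p = 0.000103). NF1, the gene of neurofibromin, to which SPRED proteins bind, fell in J.gamma1 at -0.48 (edgeR adjusted p = 0.000346) and was at 0.17 in 6T-CEM (edgeR adjusted p = 0.0521), and these differed (-0.65, edgeR adjusted p = 0.000441).

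Of 8 genes on the T-cell receptor route to ERK, 1 rose and 2 fell in 6T-CEM, while in J.gamma1 all 8 were called, 3 higher and 5 lower. LAT, the adaptor of the receptor, rose at 0.78 (SE 0.065) in 6T-CEM and 1.74 (SE 0.191, edgeR adjusted p = 0.00393) in J.gamma1, and the J.gamma1 call was lost without sh-LDB1 replicate 1 (1.78, adjusted p = 0.0568) or replicate 2 (1.71, adjusted p = 0.058). RASGRP1, which loads RAS with GTP in T cells, fell at -0.88 (SE 0.106) and -0.62 (SE 0.062). PLCG1 fell at -0.37 (SE 0.055) in 6T-CEM and at -0.51 (SE 0.046) in J.gamma1, and its RNA was present in J.gamma1 control cells, 1.26-fold above the level in 6T-CEM (edgeR adjusted p = 2.73e-05).

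Receptor tyrosine kinases were few. Of 12 genes, 4 passed the count filter in 6T-CEM (1 higher, 1 lower) and 8 in J.gamma1 (5 changed, all lower). FGFR1, a receptor upstream of ERK, fell in 6T-CEM at -0.56 (SE 0.056, edgeR adjusted p = 3.2e-06) and in J.gamma1 at -1.94 (SE 0.151, edgeR adjusted p = 2.05e-06). The difference was -1.38 (SE 0.110, edgeR adjusted p = 5.61e-06). FGFR1 was 12.6-fold lower in J.gamma1 than in 6T-CEM control cells (edgeR adjusted p = 3.12e-12). IGF1R fell in J.gamma1 at -0.74 (SE 0.073), and so did KIT at -1.21 (SE 0.205), which did not pass the filter in 6T-CEM.

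The genes that ERK activity induces, listed with some of its nuclear targets, moved in both directions. Of 21, 13 were tested in 6T-CEM (5 higher, 2 lower) and 15 in J.gamma1 (5 higher, 3 lower). EGR1, an immediate early factor, was at 0.05 (SE 0.518) in 6T-CEM and fell in J.gamma1 at -1.28 (SE 0.222, edgeR adjusted p = 0.000637), with a difference of -1.34 (edgeR adjusted p = 0.045). FOSB fell in J.gamma1 at -1.45 (SE 0.319, edgeR adjusted p = 0.00296). JUN rose in 6T-CEM at 1.13 (SE 0.138) and in J.gamma1 at 0.26 (SE 0.071), the latter no longer called without sh-LDB1 replicate 2 (0.21, adjusted p = 0.0667). EPHA2 rose in 6T-CEM at 4.19 (SE 0.281, edgeR adjusted p = 6.06e-08). ELK3, an ETS factor that ERK phosphorylates, rose in both lines at 1.68 (SE 0.083) and 2.00 (SE 0.078). MYC fell in 6T-CEM at -0.43 (SE 0.053) and rose in J.gamma1 at 0.54 (SE 0.046), a difference of 0.97 (SE 0.063, edgeR adjusted p = 1.49e-06). FOS in J.gamma1 was at 0.53 (SE 0.357) and PHLDA1 at 0.18 (SE 0.208) without passing the test, and CCND1 had too few counts for a test in either line.

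**Figure D5:**
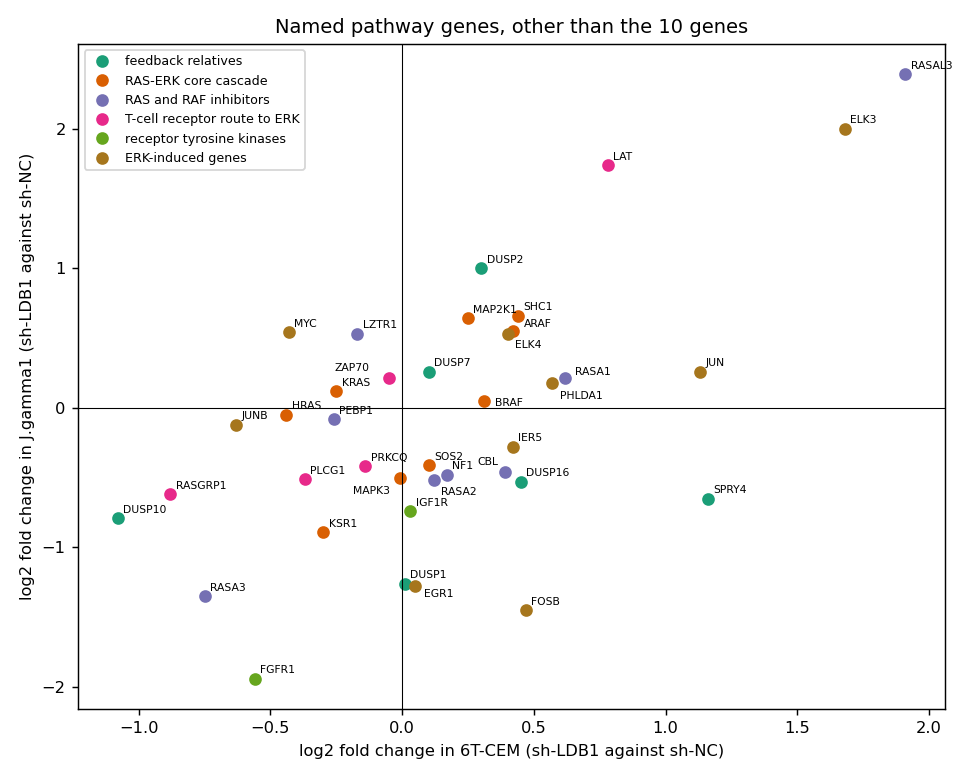
Log2 fold change of sh-LDB1 against sh-NC in 6T-CEM (horizontal axis) and J.gamma1 (vertical axis) for 39 named pathway genes tested in both lines, coloured by list; none is one of the 10 genes. RASAL3 (1.91 and 2.39) and ELK3 (1.68 and 2.00) lie at the upper right, RASA3 (-0.75 and -1.35) and FGFR1 (-0.56 and -1.94) at the lower left, and SPRY4 (1.16 and -0.65) at the lower right.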

How the data were processed

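RNA-seq of 8 libraries was analysed. Per the labels and the study's methods, the authors used HISAT2 2.2.0 for alignment of the paired reads against hg38 and StringTie for quantification. The authors deposited whole-number counts per gene, not normalised and with replicates kept apart, in 1 table per cell line. The annotation release, the use of strand and the way StringTie output became counts are not given in the sources used here. Of 64252 genes per table, 56105 had a symbol and 8147 (12.7%) had none. Totals per library were 26160492 to 30604977, and floors and intervals cover counting error only.

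The members and all lists were chosen with earlier results of these data known. Tests used edgeR 4.0.16 (quasi-likelihood, robust, TMM, filterByExpr, Benjamini-Hochberg over all genes tested) in R 4.3.3, with each line fitted alone for the knockdown and all 8 libraries fitted for the control lines and the difference of responses. The threshold was an adjusted p under 0.05. The authors used DESeq2, here an alternative (1.42.0). CPM was TMM-scaled over 8 libraries, RPKM used the union of GENCODE release 44 exons, and an SE is the log2 fold change over the root of F. A fold against at most 3 counts is a bound. P-values measure the spread between these libraries, which may be technical. Named genes are all 10 members, LDB1, genes sharing exon bases with a member, the 5 genes most correlated with ETV5, and from each list and line up to 3 rising and 3 falling genes past the threshold with a mean of at least 50 counts, plus SPRY4, DUSP1, DUSP2, FOS, EGR1, PHLDA1, CCND1, PLCG1 and MAPK3. Results of a few named genes and markers are not reported here.

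The steps were tested on simulated counts with 200 known changes per comparison. The share of false calls was 10.8% in 6T-CEM, 11.4% in J.gamma1, 7.06% for the control lines and 11.5% for the difference. Each was above the nominal level. For the difference 139 of the 200 changes were recovered. Far more genes were called in the data than were changed in the simulation, so these shares need not hold for the data. Alternatives were DESeq2, other size factors and filters, a fit of all libraries, the replicate number as a term, a fold threshold, summed ETV5 and DGKG counts, and leaving out each library. The lone library left in a group was then assumed to vary like the others.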

Additional observations from a re-analysis of the deposited data

Results flagged for a closer look

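For 3 of the 10 genes every sh-LDB1 library lay on opposite sides of the control libraries in the lines: higher in 6T-CEM and lower in J.gamma1. The differences of their log2 fold changes, J.gamma1 minus 6T-CEM, were -2.17 for ETV1, -1.55 for SPRY2 and -0.81 for SPRED2. The genes were chosen with these contrasts known, so no test of these differences is given. ETV1 rests on 6 to 23 counts per library. SPRY2 in 6T-CEM rests on 26 to 44 counts, with a log2 fold change of 0.43 (SE 0.391). The share of all genes that lay on opposite sides in this way was not counted, so nothing is read from the 3.

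For 25 other named pathway genes the response differed between the lines by edgeR's test of the difference at an adjusted p under 0.05. Of all genes tested for this difference, 24.4% were called. The named genes had the largest called knockdown changes of their list in a line, in these same libraries. That choice favours a difference between the lines, so nothing is read from the number of 25. The values below are log2 fold changes in J.gamma1 minus those in 6T-CEM. The largest negative values were -1.92 (SE 0.541) for FOSB, -1.81 (SE 0.484) for SPRY4, -1.38 (SE 0.110) for FGFR1, -1.34 (SE 0.440) for EGR1 and -1.27 (SE 0.168) for DUSP1. In 6T-CEM FOSB rested on 16 to 33 counts per library, EGR1 on 13 to 18 and SPRY4 on 27 to 94. DUSP16 was at -0.97, JUN at -0.87, CBL at -0.85, IGF1R at -0.77 and IER5 at -0.69. Among genes of RAS regulators, NF1 was at -0.65, RASA2 at -0.65, RASA3 at -0.60 and RASA1 at -0.41. KSR1 was at -0.60, SOS2 at -0.51, MAPK3 at -0.49 and PRKCQ at -0.28. Positive values were 0.97 for MYC, 0.96 for LAT, 0.70 for LZTR1, 0.51 for JUNB, 0.48 for RASAL3, 0.39 for MAP2K1 and 0.32 for ELK3. JUNB (edgeR adjusted p = 0.0497) and EGR1 (edgeR adjusted p = 0.045) were the nearest to the threshold.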

How the results depend on the processing

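ETV5 kept its direction in every alternative. Summed ETV5 and DGKG counts gave log2 fold changes of -2.03 (6T-CEM) and -2.23 (J.gamma1), since DGKG made up more of the sum with sh-LDB1. Leaving out single libraries gave -2.62 to -2.55 in 6T-CEM and -4.56 to -4.17 in J.gamma1. In these fits 3 members stayed past the threshold in 6T-CEM and 6 to 7 in J.gamma1, 8 to 9 differed between the control lines, and 22 to 27 pathway genes in 6T-CEM, 40 to 41 in J.gamma1 and 22 to 30 for the difference were called. With a log2 fold change beyond 1 as well, 4 members in J.gamma1, 7 pathway genes in 6T-CEM, 11 in J.gamma1 and 7 for the difference remained, against 7, 29, 43 and 33. The correlation over genes of same-numbered deviations was -0.0177 (6T-CEM) and -0.0355 (J.gamma1), so no shared deviation by replicate number was seen. With 2 libraries per group this cannot show whether the libraries were paired by culture. With the replicate block ETV5 was at -2.59 and -4.36, 3 and 7 members were past the threshold, 8 differed between the control lines (DUSP4 was lost), and 31, 44 and 34 pathway genes were called. In 6T-CEM 4 members were past the threshold in the fit of all 8 libraries and with a mean of at least 10 counts, where SPRED1 joined. No named gene reversed a call. Of 154 alternative knockdown values for the members other than ETV5, 139 moved by less than the spread between replicates. ETV5 moved by more than that spread with summed counts in both lines. It also did so without sh-NC replicate 2 in 6T-CEM (-2.55) and without sh-LDB1 replicate 1 in J.gamma1 (-4.56). Of 976 values for other named genes, 929 kept their side of the threshold. Without J.gamma1 sh-LDB1 replicate 2, ETV4 and SPRED2 left and DUSP4 joined the genes past the threshold. ETV1, ETV4, DUSP4 and DUSP5 did not pass the count filter in 6T-CEM, so a change there was not detectable at this depth.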
